A study of Drosophila melanogaster with 73 samples.

Results

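The response to feeding RU486 that fat bodies of 7 Drosophila melanogaster genotypes had in common was taken from 33 fat body libraries, 18 induced and 15 uninduced, out of 73 labelled libraries of the series. RU486 is the steroid that switches on the GeneSwitch driver, a Gal4 fused to a hormone receptor, so that transgenes behind UAS sites are expressed. All flies carried the S106 driver, which acts in gut and fat body, in an outbred Dahomey background with the w1118 mutation. The genotypes added UAS transgenes for Foxo, AopACT, PntP1, Foxo+AopACT, Foxo+PntP1, AopACT+PntP1 or Foxo+AopACT+PntP1, and adult females mated for 48 h were then fed 200 µM RU486 (induced) or no RU486 (uninduced) for 6 days. Polyadenylated RNA came from the abdominal fat body on its cuticle, as a pool of organs, and the gut libraries came from the same kind of flies. Each genotype had 2 or 3 induced and 2 or 3 uninduced libraries. No group carried the driver without a transgene, so a response to the drug or driver and a response to any transgene cannot be told apart by the common term alone.

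A gene was called when the induction term of 1 model over all 33 libraries, with genotype and experimental block as covariates, had an adjusted p under 0.1 (edgeR quasi-likelihood test, Benjamini-Hochberg over all tested genes). It was counted as common when its fitted log2 fold change also had 1 sign in all 7 genotypes. Of 9728 genes tested, 13 (0.134%) were called, 9 higher (0.0925%) and 4 lower (0.0411%) after induction, and 5 of these (0.0514% of the tested genes) were common. The common genes were rho-6 and pnt, which were higher (0.0206%; the level of pnt had also been used to leave out 1 library), and CG5246, CG13947 and CG43679, which were lower (0.0308%). At an unadjusted p under 0.05 there were 345 genes (3.55%), 108 higher (1.11%) and 237 lower (2.44%), and the median log2 fold change of all tested genes was -0.03. In none of the 9728 genes did every induced library lie on one side of every uninduced library.

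The fat body of the fly stores lipid and glycogen and secretes proteins into the haemolymph, in roles shared by liver and adipose tissue of mammals. Foxo is the forkhead transcription factor that becomes active when insulin signalling is low. Aop (also called Yan) represses and Pnt activates genes through the same ETS binding sites downstream of receptor tyrosine kinases, AopACT being a constitutively active form of the repressor and PntP1 an isoform of the activator.

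Total gene counts per library ranged from 1138812 to 8257766, with a median of 2819490. The summed level of 6 fat body markers (apolpp, which encodes the main lipid carrier of the haemolymph, with Lsp2, AkhR, Tsf1, FASN1 and Lsd-1) had medians of 13638 CPM (counts brought to a common library size with TMM factors) in uninduced and 11903 CPM in induced fat bodies, against 246 CPM in guts. The library labelled Foxo+PntP1 uninduced replicate 1 held 114.8 CPM of pnt (scaled with all 34 fat body libraries), where the other uninduced libraries held 7.84 to 22.05 CPM, and it was left out because its level goes against its label. Another 3 labelled fat body libraries, 1 induced each of AopACT, PntP1 and Foxo+PntP1, were not analysed here. Of the driven factors, aop lay between 60.1 and 120 CPM in induced libraries with AopACT and between 43.0 and 78.4 CPM in uninduced libraries. Induced libraries without AopACT held 50.8 to 86.1 CPM of aop. In PntP1 its level went from 49.7 ± 1.34 to 82.3 ± 5.49 CPM (SD, n = 2 and 2), a fitted log2 fold change of 0.74. The fitted change of aop was 0.83 in AopACT, 0.20 in Foxo and -0.29 in Foxo+PntP1. The foxo level in induced libraries with a Foxo transgene (44.5 to 149 CPM, median 61.6) overlapped that of the uninduced libraries (39.2 to 123 CPM, median 90.1). Neither aop (log2 fold change 0.42 ± 0.10, SE, edgeR adjusted p = 0.149) nor foxo (-0.16 ± 0.17, edgeR adjusted p = 1.0) was called by the common term in edgeR. At about the same fold aop was called by DESeq2 (log2 0.44, adjusted p = 0.00296) and limma (0.41, adjusted p = 0.0569). By the study's methods each replicate was its own pool of organs. The p-values measure only the spread between these pools, which may include technical variation.

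The gene CG5246 (FBgn0038484, chromosome 3R, 17136111 to 17137195, plus strand, genome release BDGP6), predicted to encode a trypsin-like serine protease, fell in abundance after induction. In the 15 uninduced libraries its level had a minimum of 37.2, a median of 203 and a maximum of 489 CPM, and in the 18 induced libraries 15.9, 47.5 and 270.0 CPM. The groups overlapped, but 8 induced libraries lay below every uninduced library, and 0.288% of tested genes had at least 8 such libraries. The log2 fold change was -1.67 ± 0.31 (SE, edgeR adjusted p = 0.0181). By genotype the fitted log2 fold changes were -3.61 in PntP1, -2.74 in AopACT, -2.24 in Foxo+AopACT+PntP1, -1.42 in Foxo, -1.19 in AopACT+PntP1, -0.53 in Foxo+AopACT and -0.14 in Foxo+PntP1. The level in PntP1 fat bodies went from 337 ± 2.32 to 25.7 ± 6.40 CPM (SD, n = 2 and 2), while in Foxo+PntP1 it went from 287 ± 22.4 to 264 ± 8.77 CPM (SD, n = 2 and 2). In 4 genotypes no induced library reached an uninduced one (AopACT, PntP1, Foxo+PntP1 and the triple genotype), a pattern that 0.555% of tested genes had in the lower direction. In Foxo+PntP1 this rested on a narrow gap, the nearest induced and uninduced libraries holding 270.0 and 270.8 CPM. CG5246 stayed called in all 33 fits that left out 1 library, but it lacked 1 sign without Foxo+AopACT uninduced replicate 1, AopACT+PntP1 uninduced replicate 1, Foxo+PntP1 induced replicate 2 or Foxo+PntP1 uninduced replicate 3.

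The gene CG13947 (FBgn0031277, chromosome 2L, 779173 to 779655, plus strand), for which no role is given here, had the largest fall of the common genes. The uninduced libraries had a minimum of 8.28, a median of 45.7 and a maximum of 479 CPM, and the induced libraries 0, 7.83 and 157 CPM. In 9 induced libraries the level was below every uninduced library (0.113% of tested genes had at least 9), although the 3 induced Foxo libraries (81.6 to 157 CPM) were above most uninduced libraries of other genotypes. The log2 fold change was -2.46 ± 0.48 (SE, edgeR adjusted p = 0.0235), with -5.73 in PntP1 and -5.12 in Foxo+PntP1, and from -1.08 to -2.60 in the other 5 genotypes. The induced libraries of PntP1 held 0.353 ± 0.500 CPM and those of Foxo+PntP1 0.387 ± 0.101 CPM (SD, n = 2 each), against 65.9 ± 43.6 and 32.7 ± 31.5 CPM in their uninduced libraries (SD, n = 2 each). Foxo fat bodies started highest, at 261 ± 210.1 CPM (SD, n = 3), and held 119 ± 37.6 CPM (SD, n = 3) after induction.

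The gene CG43679 (FBgn0263762, chromosome 3L, 15050856 to 15051425, minus strand) was the least abundant of the 3 lower genes. It lies within Sytbeta on the same strand, so its reads may not be separable from that gene. The uninduced libraries ranged from 4.95 to 39.7 CPM with a median of 13.3, and the induced libraries from 0.796 to 22.03 CPM with a median of 4.81. Of the induced libraries 9 lay below all uninduced ones, and 0.113% of tested genes had at least 9. The log2 fold change was -1.52 ± 0.30 (SE, edgeR adjusted p = 0.0250), the largest fall being -2.41 in AopACT and the smallest -0.73 in Foxo+AopACT. Its call did not survive when any 1 of 5 libraries was left out: AopACT+PntP1 uninduced replicate 1, PntP1 induced replicates 1 and 3, PntP1 uninduced replicate 1 and Foxo+AopACT+PntP1 uninduced replicate 2 (edgeR adjusted p from 0.105 to 0.126).

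**Figure D1:**
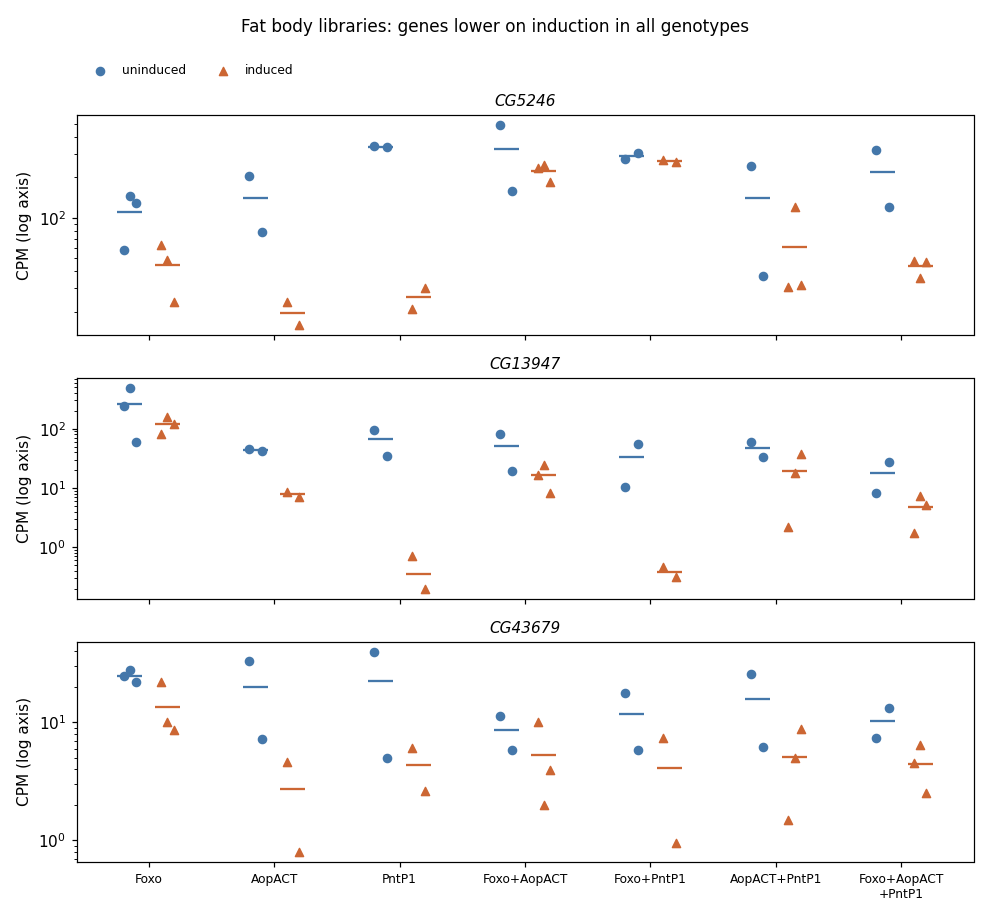
Level of CG5246, CG13947 and CG43679 in each fat body library, in CPM on a log axis, by genotype; circles are uninduced and triangles induced libraries, horizontal lines are group means, and a level of 0 is drawn at 0.2. The 18 induced libraries of CG5246 have a median of 47.5 CPM and the 15 uninduced libraries 203 CPM, and the 2 induced Foxo+PntP1 libraries stay beside their uninduced libraries.

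The 3 lower genes fell in most pairs of libraries that shared genotype and block. There were 13 such pairs, 7 of them in block D, which held 1 pair of every genotype. CG5246 was lower in the induced library of 11 pairs (6 of 7 in block D), CG13947 in 11 (5 of 7) and CG43679 in 12 (6 of 7), with median differences of -1.34, -2.25 and -1.19 in log2 CPM (prior count of 2). At least 11 lower pairs were seen in 0.689% and at least 12 in 0.103% of tested genes. No such share was taken for block D alone. A fit of these pairs alone, with the pair as a replicate block, kept the size of the changes (log2 -1.39, -2.10 and -1.22) but called none of the 3 (edgeR adjusted p = 1.0 each), and Obp99b was the single gene it called.

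**Figure D2:**
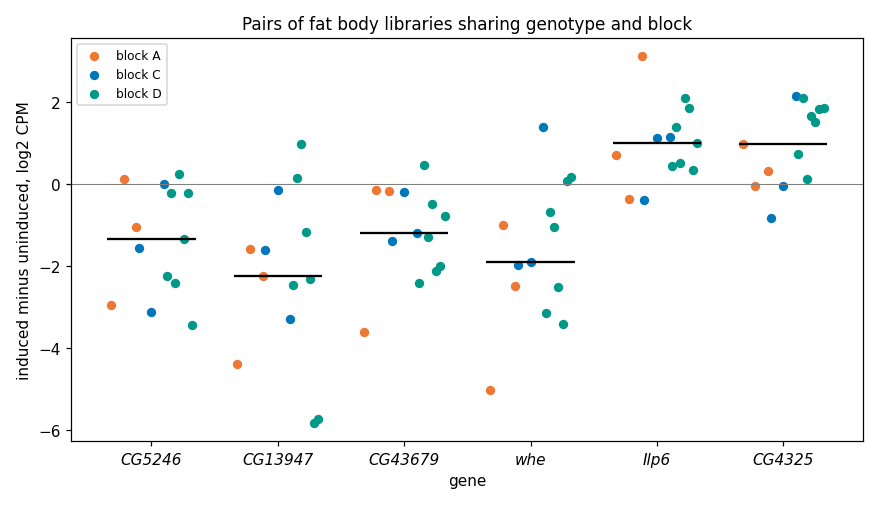
Difference in log2 CPM (prior count of 2) between the induced and the uninduced library of each of 13 pairs of fat body libraries sharing genotype and block, for 6 called genes; colours mark the block and black lines the median. CG43679 is below 0 in 12 pairs and CG5246 in 11. All 7 pairs of block D are above 0 for Ilp6 and CG4325, while their Foxo pairs of blocks A and C are below 0.

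Of the 3, CG5246 was also abundant in the gut, at a median of 827 CPM over 36 gut libraries, where CG13947 had 13.1 and CG43679 3.39 CPM. Markers of gut enterocytes had log2 fold changes of the same sign as these genes. All 13 tested markers of 14 listed, mostly trypsins, Jonah proteases and amylases, had a negative value, with a median of -1.01, and 6 had an unadjusted p under 0.05, as 2.44% of all tested genes did in the lower direction. None was called by edgeR (lowest adjusted p 0.118, CG12374) or by limma, and DESeq2 called CG12374 and epsilonTry lower. Their summed level ran from 33.5 to 5995 CPM in uninduced libraries (median 288) and from 68.4 to 1341 CPM in induced libraries (median 164), and no marker was at 0 in more than 5 libraries. The 3 libraries with the highest sums were all uninduced (AopACT+PntP1 replicate 1, Foxo+PntP1 replicate 3 and Foxo replicate 1). Relative to the gut median of 81460.5 CPM, the sums correspond to a median of 0.264% and a maximum of 7.36% gut RNA. The sum in single gut libraries ran from 11268 to 149866 CPM, so these shares and the amounts taken from them are rough. Such shares of the gut level would amount to a median of 2.92 CPM of CG5246 in uninduced libraries, or 2.22% of what was measured there, and to 0.109% of CG13947 and 0.126% of CG43679. The highest amount for CG5246 was 60.8 CPM, in AopACT+PntP1 uninduced replicate 1, which held 242 CPM of it. With this gut median, the amount exceeded the measured level in 0 of 33 libraries for CG5246 and CG43679 and in 1 for CG13947. A lower gut sum would give larger amounts, so these counts depend on that reference. Gut RNA as a source of the fall was not tested.

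With the log2 sums of gut enterocyte, germline and eggshell markers as covariates, the log2 fold changes were -1.70 for CG5246 (edgeR adjusted p = 0.00522), -2.14 for CG13947 (0.106) and -1.52 for CG43679 (0.0340). Without the 3 libraries of highest gut markers they were -1.73 (edgeR adjusted p = 0.0692), -2.32 (0.0692) and -1.60 (0.0927), and CG5246 and pnt then lacked 1 sign in all 7 genotypes. Of 15 tested eggshell markers 9 had a positive log2 fold change, with a median of 1.204 over the list. These 9 were the genes with Cp symbols (1.01 to 2.73), and the other 6 were negative (-0.46 to -1.32). Of the eggshell markers edgeR called none and DESeq2 called Cp36 and Cp38 higher. Their sums ran from 30.7 to 12021 CPM in uninduced and 35.7 to 5679 CPM in induced libraries. No germline marker of 9 tested had an unadjusted p under 0.05, and their median was 0.15.

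Among the genes that rose, pnt (FBgn0003118, chromosome 3R, 23290231 to 23346167, minus strand) is the locus whose PntP1 isoform the transgene encodes, and it shares its strand with lncRNA:CR46090. Its level was 7.85, 17.5 and 22.1 CPM (minimum, median and maximum) in uninduced and 15.0, 56.3 and 213 CPM in induced libraries, and 14 of 18 induced libraries were above every uninduced one (0.0103% of tested genes had at least 14). The log2 fold change was 1.75 ± 0.32 (SE). Because the uninduced library left out was chosen by its high pnt level, the values of pnt are a description and its call is no independent result. With that library kept, the log2 fold change was 1.59 and the call was lost (edgeR adjusted p = 0.110). The response was 2.94 ± 0.23 in the 4 genotypes with PntP1 and 0.33 ± 0.24 in the 3 genotypes without it (SE), where no library was left out and the change did not pass (edgeR adjusted p = 0.67). Without PntP1, the 8 induced libraries held 15.0 to 30.2 CPM and the 7 uninduced libraries 12.7 to 21.9 CPM, which overlap. In Foxo fat bodies the fitted change was 0.04, with 16.5 ± 4.67 CPM before and 16.7 ± 2.24 CPM after induction (SD, n = 3 and 3), a difference far below the spread. Leaving out Foxo uninduced replicate 1 or Foxo induced replicate 1 removed the shared sign.

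The gene rho-6 (FBgn0032415, chromosome 2L, 12130516 to 12133411, minus strand) encodes a member of the rhomboid family of membrane proteases. It was near the limit of detection, with 5 counts in all 15 uninduced and 162 counts in all 18 induced libraries, a depth-corrected ratio of 29.6 (95% exact binomial interval 12.4 to 92.3, counting error only). The uninduced levels ran from 0 to 0.531 CPM with a median of 0, and the induced levels from 0 to 16.4 CPM with a median of 0.875, and 12 induced libraries were above all uninduced ones (0.0514% of tested genes had at least 12). The log2 fold change was 3.96 ± 0.61 (SE, edgeR adjusted p = 0.00193). Of the 162 induced counts, 158 came from the 11 libraries with AopACT, where the response was 4.56 ± 0.68 (SE, edgeR adjusted p = 0.000581). In the 7 induced libraries without AopACT there were 4 counts, against 1 count in 7 uninduced libraries, and the response was 1.33 ± 1.09 (SE, edgeR adjusted p = 0.733). The difference of 3.22 ± 2.13 did not pass (edgeR adjusted p = 0.592). Its positive sign in Foxo, PntP1 and Foxo+PntP1 rested on those 4 counts, and it was lost without Foxo induced replicate 3, PntP1 induced replicate 3 or PntP1 uninduced replicate 2.

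Ilp6, CG4325 and whe were called and moved one way in 6 of 7 genotypes and the other way in the last. Shares of 2.44% and 7.38% of all tested genes had at least 6 genotypes higher and lower. Ilp6 (FBgn0044047, chromosome X, 2331493 to 2334658, minus strand) encodes the insulin-like peptide made by the fat body and overlaps Raf on the opposite strand. Its level was 12.5, 30.6 and 67.4 CPM in uninduced and 18.1, 62.1 and 225 CPM in induced libraries (minimum, median and maximum), with a log2 fold change of 1.09 ± 0.21 (SE, edgeR adjusted p = 0.0235). Induced and uninduced libraries did not overlap in any genotype but Foxo, a pattern in the higher direction that 0.0206% of tested genes had in at least 6 genotypes. The fitted change was -0.03 in Foxo, from 30.6 ± 6.62 to 31.6 ± 18.9 CPM (SD, n = 3 and 3), and 2.58 in Foxo+AopACT, from 32.2 ± 27.9 to 177 ± 57.6 CPM (SD, n = 2 and 3). The response was 1.64 ± 0.24 in genotypes with AopACT and 0.41 ± 0.26 in those without it (SE), and this difference of 1.23 ± 0.36 failed the correction (edgeR unadjusted p = 0.00206, adjusted p = 0.526). With and without PntP1 it was 1.15 ± 0.29 and 0.999 ± 0.335, and with and without Foxo 1.13 ± 0.29 and 1.03 ± 0.33 (SE), differences within their errors.

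CG4325 (FBgn0026878, chromosome X, 2042730 to 2043818, minus strand), which overlaps CG4313 on the opposite strand, rose by a log2 fold change of 1.004 ± 0.22 (SE, edgeR adjusted p = 0.0636). Levels were 1.94, 6.59 and 12.0 CPM in uninduced and 4.29, 12.5 and 27.1 CPM in induced libraries, and the groups did not overlap in 5 genotypes (0.134% of tested genes had at least 5 such genotypes in the higher direction). Foxo was the exception with -0.26, and the largest change was 2.03 in Foxo+PntP1, where the level went from 2.89 ± 1.35 to 13.9 ± 7.60 CPM (SD, n = 2 and 2). All 7 pairs of block D were higher after induction for both Ilp6 and CG4325, and 11 and 10 of all 13 pairs were (at least 11 higher pairs in 0.421% and at least 10 in 2.75% of tested genes). The share of tested genes was not taken for block D alone. In the Foxo pairs of blocks A and C, log2 CPM was lower for Ilp6 (-0.37 and -0.39) and for CG4325 (-0.05 and -0.83). The call of CG4325 was lost in 13 of the 33 fits that left out 1 library (edgeR adjusted p up to 0.164).

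The gene whe (FBgn0031176, chromosome X, 21402339 to 21402772, minus strand) fell by 1.82 ± 0.35 on the log2 scale (SE, edgeR adjusted p = 0.0235). Its uninduced libraries had 95.1, 229 and 988 CPM and its induced libraries 7.45, 60.4 and 543 CPM, and 10 induced libraries lay below all uninduced ones, as at least 10 did for 0.0411% of tested genes. In the 11 induced libraries with AopACT the level was 7.45 to 141 CPM, and 10 of these were below the 8 uninduced libraries of the same genotypes. The response was -2.75 ± 0.38 with AopACT and -0.54 ± 0.44 without it (SE), a difference of -2.21 ± 0.59 that did not pass (edgeR unadjusted p = 0.000969, adjusted p = 0.526). In Foxo+PntP1 the fitted change was 0.87, with 179.5 ± 41.4 CPM before and 349.9 ± 273 CPM after induction (SD, n = 2 and 2).

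**Figure D3:**
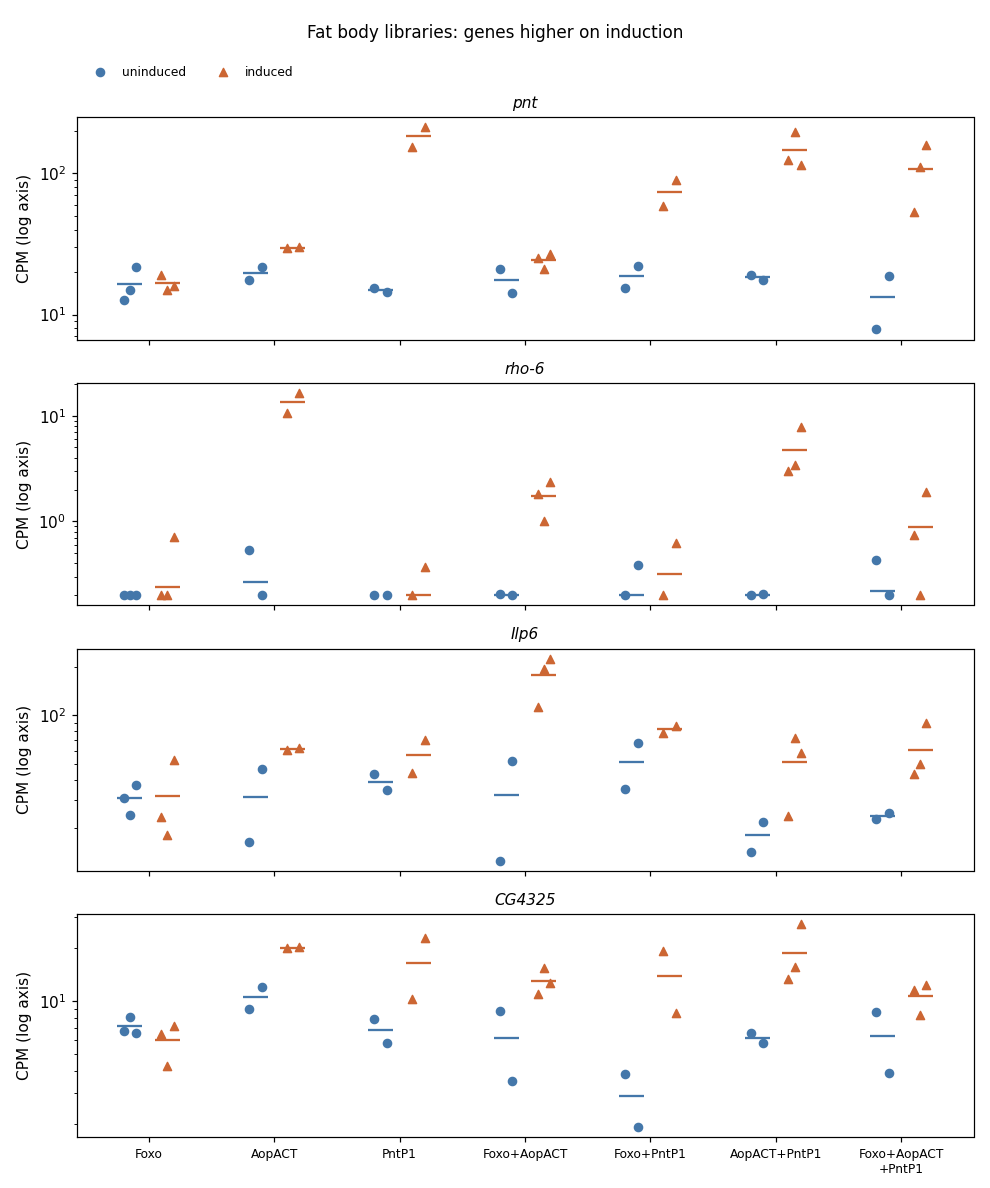
Level of pnt, rho-6, Ilp6 and CG4325 in each fat body library, in CPM on a log axis, by genotype; circles are uninduced and triangles induced libraries, horizontal lines are group means, and levels under 0.2 are drawn at 0.2. Induced pnt is at 53.5 CPM or more in the genotypes with PntP1, rho-6 reaches 16.4 CPM in AopACT, and Ilp6 and CG4325 overlap between groups in Foxo.

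The remaining called genes had most of their induced counts in libraries with 1 given transgene. Obp99b (FBgn0039685, chromosome 3R, 29716254 to 29716896, minus strand), an odorant-binding protein, had 0 to 1.63 CPM in all uninduced libraries and 0, 73.2 and 2254 CPM (minimum, median and maximum) in induced libraries, a log2 fold change of 6.79 ± 0.93 (SE, edgeR adjusted p = 0.000666). The 11 induced libraries with AopACT held 37.0 to 2254 CPM, while the 7 without it held 0 to 2.83 CPM. The responses were 8.26 ± 0.56 and -0.45 ± 0.84 (SE), and the difference of 8.70 ± 1.18 passed (edgeR adjusted p = 0.000782). CG11300 (FBgn0034901, chromosome 2R, 23751915 to 23752495, plus strand) had 149 of its 153 induced counts in libraries with AopACT and 2 counts in all uninduced libraries. The ratio was 69.8 (95% exact binomial interval 18.997 to 582, counting error only). Its responses were 5.03 ± 0.84 with AopACT and 2.71 ± 1.43 without it (SE). The difference of 2.32 ± 6.99 did not pass (SE, edgeR adjusted p = 0.928). The fitted change of CG11300 was above 0 in every genotype but Foxo+PntP1, which had no count.

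Ids, the fly iduronate 2-sulfatase gene, CG11425, which resembles lipid phosphate phosphatases, and CG33136 rose with PntP1. Ids (FBgn0035445, chromosome 3L, 3378268 to 3380083, plus strand) ran from 15.0 to 77.01 CPM in the 10 induced libraries with PntP1, from 0.31 to 4.74 CPM in the 8 without it and from 0 to 4.27 CPM in uninduced libraries. Its response of 4.18 ± 0.37 with PntP1 differed from that of -0.32 ± 0.45 without it by 4.50 ± 0.58 (SE, edgeR adjusted p = 0.000147). CG11425 (FBgn0037167, chromosome 3L, 22474795 to 22475792, plus strand) showed 4.19 ± 0.56 and 0.27 ± 0.75 (SE), a difference of 3.92 ± 0.99 that did not pass (edgeR unadjusted p = 0.000492, adjusted p = 0.158). CG33136 (FBgn0053136, chromosome 2R, 18664449 to 18665792, minus strand) had 88 of its 89 induced counts in libraries with PntP1 and 1 count in all uninduced libraries. The ratio was 81.2 (95% exact binomial interval 14.2 to 3243, counting error only). Its responses with and without PntP1 differed by 6.30 ± 2.83 (SE), which did not pass (edgeR unadjusted p = 0.048, adjusted p = 0.658). Over all tested genes the responses with and without a transgene differed for 14 genes (0.144%) for PntP1, 4 genes (0.0411%) for AopACT and 0 genes for Foxo by the same edgeR test.

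**Figure D4:**
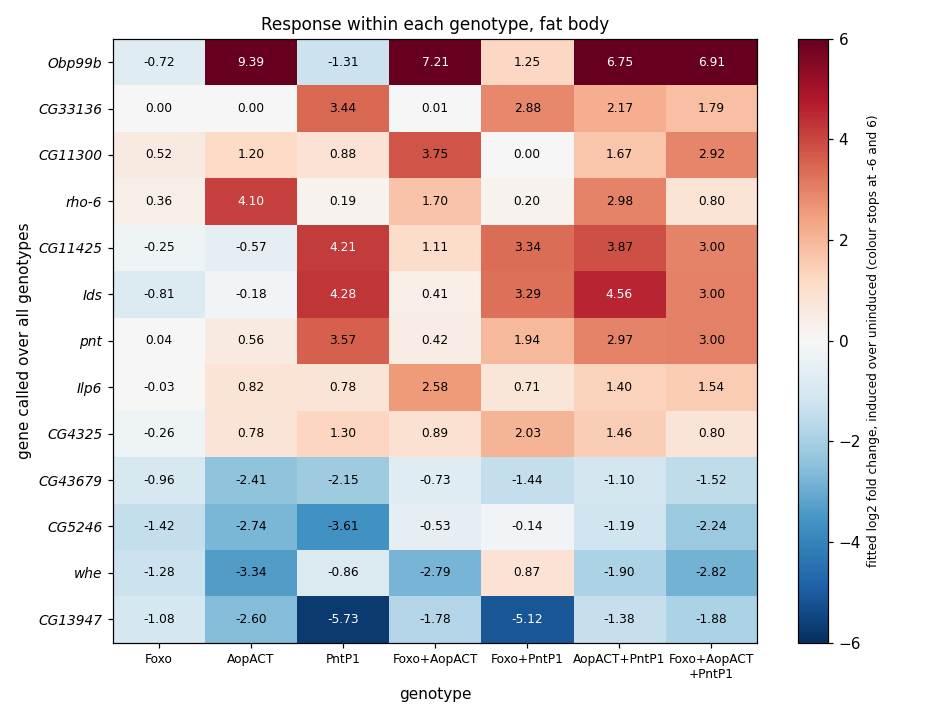
Fitted log2 fold change (induced over uninduced) of the 13 called genes within each genotype, from the edgeR model of 14 groups and block with a prior count of 2; red is higher and blue lower after induction, and 0.00 marks a genotype without a count. CG13947, CG5246 and CG43679 are blue in every column, pnt and rho-6 are positive in every column, and Ilp6 and CG4325 are below 0 only in Foxo.

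The common genes that were lower passed no test of a difference between genotypes with and without a transgene. For CG5246 the difference was -0.25 ± 0.64 for PntP1, -0.12 ± 0.67 for AopACT and 1.49 ± 0.59 for Foxo (SE, edgeR adjusted p = 0.887, 0.962 and 0.995), its response being -1.13 ± 0.35 with and -2.62 ± 0.48 without Foxo. For CG43679 the differences were -0.29 ± 0.62, 0.02 ± 0.73 and 0.76 ± 0.63, and for CG13947 -1.39 ± 0.94, 1.18 ± 1.03 and 0.94 ± 0.99 (SE), in the same order. These errors leave room for differences of more than 1 on the log2 scale in either direction for AopACT in CG5246 and CG43679. In the 3 genotypes without Foxo, CG5246 was called (edgeR adjusted p = 0.0241), but CG13947 and CG43679 were not (edgeR adjusted p = 0.487 and 0.378). In those without PntP1 none of the 3 was called (edgeR adjusted p = 0.371, 0.493 and 0.475), nor in those without AopACT (edgeR adjusted p = 0.708 each).

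**Figure D5:**
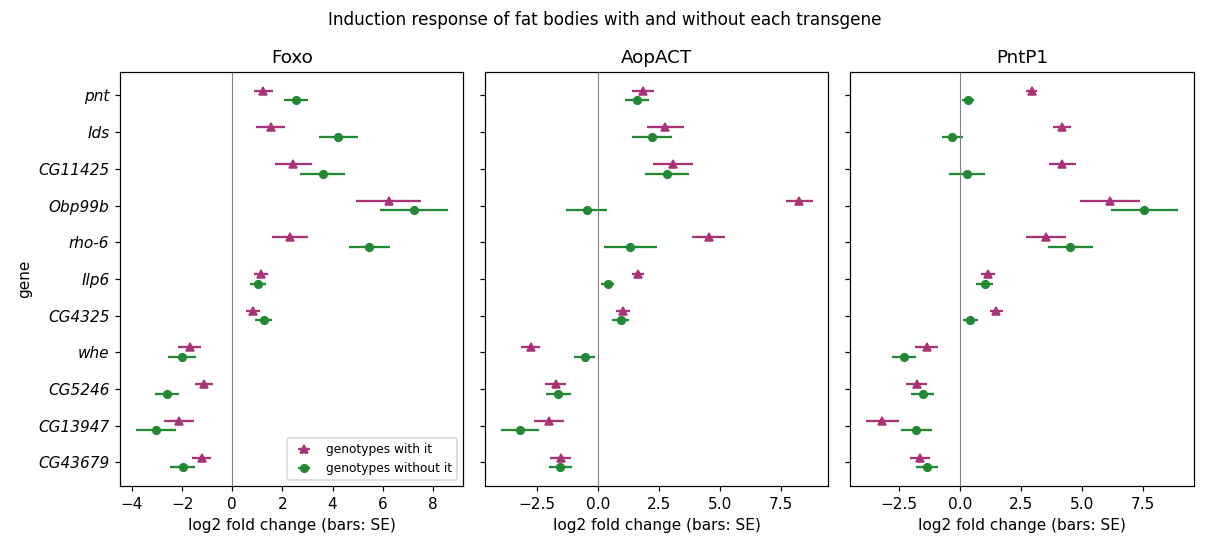
Log2 fold change (induced over uninduced, with its SE as a bar) in genotypes with (triangles) and without (circles) each of the transgenes Foxo, AopACT and PntP1, from edgeR fits of all 33 fat body libraries, for 11 called genes. Obp99b lies at 8.26 with AopACT and at -0.45 without it, pnt and Ids differ likewise for PntP1, and CG5246, CG13947 and CG43679 are below 0 in every comparison.

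A test of whether the response differed among the 7 genotypes (edgeR, 6 degrees of freedom for the interaction of genotype and induction) passed for 12 of 9728 genes (0.123%), and 1215 (12.5%) had an unadjusted p under 0.05. Of the 13 called genes, pnt, Ids and Obp99b passed it (edgeR adjusted p = 0.0102 each), pnt being the gene that chose the library left out. For CG5246, CG13947 and CG43679 the adjusted p was 0.350, 0.350 and 0.832 (edgeR). The gene edl, a modulator of Aop and Pnt activity, is an example that the common term of edgeR did not call, chosen after its values were seen. Its fitted changes were 3.85 in PntP1 and from -0.15 to -0.48 in Foxo, AopACT and Foxo+AopACT (edgeR interaction adjusted p = 0.0209), and the common term gave 1.31 ± 0.39 (SE, edgeR adjusted p = 0.528), although DESeq2 and limma called it.

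Whatever their p, 48 genes (0.493%) had 1 sign in all 7 genotypes, 10 higher (0.103%) and 38 lower (0.391%). Those with the lowest p that edgeR did not call, named after their values were seen, were asRNA:CR44119 (log2 -0.56 ± 0.13, SE, edgeR adjusted p = 0.118), CG44142 (-1.63 ± 0.39, 0.149) and SLC5A11 (-0.51 ± 0.12, 0.158). The first and the last overlap on opposite strands, so their reads may not be separate. Other tools called CG44142 (DESeq2 adjusted p = 0.0044) and SLC5A11 (DESeq2 adjusted p = 0.0482, limma adjusted p = 0.0171), with the same direction. Cth, which encodes cystathionine gamma-lyase of the transsulfuration pathway, had 58.6 CPM as its uninduced and 81.1 CPM as its induced median (log2 0.65 ± 0.17, SE, edgeR adjusted p = 0.269), with fitted changes between 0.29 and 0.69 in 6 genotypes and 2.57 in AopACT. Cth was called by DESeq2 (log2 0.67, adjusted p = 0.0263), by limma (0.72, adjusted p = 0.0528) and with marker covariates (0.81, edgeR adjusted p = 0.00164).

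The other lists of genes were described by counts, with no test of the list. Of 19 tested insulin pathway genes, edgeR called Ilp6, while DESeq2 and limma each called Ilp6, rha and tobi, and the list's median log2 fold change was 0.01. The insulin-responsive glucosidase gene tobi stood at 18.99 CPM (median) in uninduced and 150.1 CPM in induced libraries, with 5.29 in AopACT and -0.41 in Foxo, and its common change of 2.05 ± 0.54 did not pass in edgeR (SE, adjusted p = 0.269). It passed in DESeq2 (2.04, adjusted p = 0.000607), in limma (2.08, adjusted p = 0.0175) and in edgeR with marker covariates (2.90, adjusted p = 0.000992). Adh (-0.34 ± 0.19), aay (0.21 ± 0.18), Thor (-0.05 ± 0.17) and PGRP-SC2 (-0.55 ± 0.68) had edgeR adjusted p of 1.0 each (log2 fold changes, SE). Of 16 ETS factors and targets of the epidermal growth factor receptor, edgeR called pnt, while DESeq2 and limma each called aop, edl and pnt. Over all tested genes DESeq2 called 40 and limma 35. Because aop and pnt are loci that the transgenes drive, and pnt chose the library left out, their calls are no result about the list. Of 16 odorant-binding proteins, Obp99b alone was called by edgeR, DESeq2 and limma, and the median of that list was -0.08.

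Genes of drug metabolism, which clear steroids and other foreign compounds, held no member called by edgeR, which called 0.134% of all tested genes. This was so for 70 cytochrome P450 genes (median log2 fold change -0.10, range -0.91 to 0.72), 25 glutathione transferases (0.01), 24 UDP-glycosyltransferases (-0.22) and 7 efflux transporters (-0.16). At an unadjusted p under 0.05 these lists held 6, 0, 3 and 1 genes, where 3.55% of all tested genes did. DESeq2 and limma called 0 in each, and edgeR with marker covariates called 1 cytochrome P450 gene. With so few genes called over all, these counts do not show that a drug response was absent. Among 16 nuclear receptors (median -0.06) and 13 ecdysone response genes (-0.05), the targets of insect steroid signalling, no gene had an unadjusted p under 0.05 and none was called by edgeR, DESeq2 or limma. All 13 glycolysis genes (median -0.37), 15 lipid synthesis genes (-0.19) and 58 of 61 nuclear-encoded respiratory chain genes (-0.13) had negative log2 fold changes beside the median of -0.03 over all genes, but none was called by any of these tools, and 2, 0 and 2 had an unadjusted p under 0.05. Such signs were not particular to metabolism. They were negative for 32 of 33 proteasome genes (median -0.10) and 77 of 84 cytosolic ribosomal protein genes (-0.12), and positive for 7 of 9 germline markers. Of 11 serine, folate and methionine enzymes, edgeR called none and 3 had an unadjusted p under 0.05. DESeq2 called Nmdmc (log2 0.90 ± 0.25, SE, edgeR adjusted p = 0.358) and Gnmt (1.51 ± 0.42, 0.363), and limma called Gnmt.

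In guts, the same model over 36 libraries called 947 of 9270 genes (10.2%), 416 higher (4.49%) and 531 lower (5.73%), and 347 (3.74%) of these also had 1 sign in all 7 genotypes. The fat body response differed from the gut response for 50 of 9720 genes (0.514%) in a joint edgeR fit of both tissues, which had its own filter on low counts, and for none of the 11 called genes in that fit. CG5246 was also lower in induced guts (log2 -0.75 ± 0.21, SE, edgeR adjusted p = 0.0236), from a median of 941 to 547 CPM, and the fat body minus gut difference was -0.94 ± 0.38 (edgeR adjusted p = 0.487). CG13947 and CG43679 had gut log2 fold changes of -1.31 ± 0.80 and -0.85 ± 0.53 (SE), which did not pass (edgeR adjusted p = 0.391 and 0.398). Ilp6, at a mean of 0.709 CPM in uninduced guts, had 0.57 ± 0.42 (SE, edgeR adjusted p = 0.494), CG4325 rose in guts as well (1.36 ± 0.34, 0.0106), and rho-6, CG11425 and Ids were not tested in the fit of guts alone. SLC5A11 fell far more in guts (-1.67 ± 0.16, SE, edgeR adjusted p = 1.2e-08) than its -0.51 in fat bodies, a difference of 1.15 ± 0.21 that passed (edgeR adjusted p = 0.00191).

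In bulk RNA, fewer cells of a type and less RNA per cell cannot be told apart. The called set also depended on which genotypes entered. Leaving out AopACT+PntP1, PntP1 or Foxo+AopACT+PntP1 left 7, 4 and 4 called genes, and leaving out Foxo gave 23, of which 12 had 1 sign in the other 6 genotypes.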

How the data were processed

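Polyadenylated RNA of dissected fat bodies and guts was sequenced with molecular identifiers (NextFlex qRNAseq v2). Per the study's methods and submitters' notes, the authors removed duplicate molecules with Je 1.2, aligned reads with HISAT2 2.1 to D. melanogaster genome release 6.19 and counted them per gene with featureCounts 1.6. The deposited values are raw counts. Whether counting used strand is not stated.

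From these counts, genes passing filterByExpr (minimum count 10) were tested with edgeR 4.0.16 (quasi-likelihood, TMM scaling, R 4.3.3) on genotype, block and induction. Responses within genotypes and the interaction came from a fit of 14 groups and block (17 residual degrees of freedom, against 23 for the common term), and CPM used the same scaling. Benjamini-Hochberg adjusted p under 0.1 was called. The members and gene lists were chosen with earlier results of these data known. The rule for named genes took foxo, aop and pnt, the genes the study assayed by qRT-PCR, common genes averaging 5 CPM or more (highest, lowest and lowest p), common members of each list, abundant markers, and the 3 called genes of lowest p without 1 sign. The other called genes (rho-6, whe, CG11425, Ids and CG4325), Gnmt, Nmdmc, the DESeq2-called markers, SLC5A11 and those marked in the text were named after their values were seen. The 24 pairs of replicates all differed beyond sampling noise (lowest chi-square per degree of freedom 9.81). The fits were run on simulated counts with the same spread for all genes and changes planted only in well-counted genes. Genes near the limit of detection are not covered by that simulation. Alternatives included DESeq2 1.42.0 and limma 3.58.1, other scaling and filters, block, and leaving out libraries and genotypes.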

Additional observations from a re-analysis of the deposited data

Results flagged for a closer look

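Of the called genes, pnt, Ids and Obp99b responded differently among the 7 genotypes (edgeR interaction test, adjusted p = 0.0102 for each). The transgene encodes the PntP1 isoform of pnt, so a larger pnt response with PntP1 is no separate finding. The response with PntP1 exceeded that without it by 2.60 for pnt and by 4.50 for Ids, and the response with AopACT exceeded that without it by 8.70 for Obp99b (log2 scale, with n = 10 and 8 induced libraries for PntP1 and 11 and 7 for AopACT).

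The library labelled Foxo+PntP1 uninduced replicate 1, which entered no comparison, held 114.8 CPM of pnt, above the other 15 uninduced fat body libraries (7.84 to 22.05 CPM), and since this level led to its being left out, the values of pnt above are a description. The responses of fat body and gut differed for SLC5A11, by 1.15 on the log2 scale (edgeR adjusted p = 0.00191).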

How the results depend on the processing

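With RLE scaling, no filter on low counts or an adjusted p under 0.05, the 5 common genes stayed the same 5. DESeq2 called 40 genes (12 of the 13 among them), of which 13 had 1 sign, with 499 interaction genes, and limma called 35 and 12. The mean of the 7 contrasts gave 28 (9 of the 13 among them) and 8 (4 of the 5), without rho-6 (edgeR adjusted p = 0.158), Obp99b, CG11300 or CG33136 (1.0 each), and marker covariates gave 31 called genes. Leaving out Foxo gave 23 called and 12 with 1 sign, leaving out PntP1 or Foxo+AopACT+PntP1 gave 4 and 1 each, and leaving out AopACT+PntP1 gave 7 called. Genotypes lacking PntP1 gave 6 called, those lacking Foxo 6, and those lacking AopACT 0 and 0 (644 at an unadjusted p under 0.05). With the 13 pairs as a replicate block 1 gene was called and 0 were common. Without the replicate block 14 genes were called and 4 common, and the calls of Ilp6 and CG43679 were lost. With the left-out library kept, 10 and 4 were, and those of pnt, Ilp6 and Ids were lost. Without the 3 libraries highest in gut markers (chosen after seeing the data, as were marker covariates, the pairs and the genotypes lacking a transgene) 12 and 5 were, and those of CG33136, CG11425, Ids and CG4325 were lost. Without library 02, whose code stands for other conditions in the gut, the interaction gave 19 genes.

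Leaving out 1 library at a time gave 10 to 19 called genes, 3 to 9 common genes, 5 to 43 interaction genes and 34 to 87 genes differing between tissues (87 without AopACT+PntP1 uninduced replicate 2). There were 3 common genes without AopACT+PntP1 uninduced replicate 1 or PntP1 induced replicate 3, 8 without Foxo replicate 2 of either group and 9 without AopACT+PntP1 induced replicate 3. CG13947 stayed common in all 33 fits, pnt in 31, rho-6 in 30, CG5246 in 29 and CG43679 in 28. The call of Ids was lost in 12 fits (adjusted p up to 0.185) and that of CG4325 in 13. A lone sample left in a group was assumed to vary like the other groups.

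Signs turned in genotypes lacking AopACT for Obp99b (-0.45), tobi (-0.052) and aay (-0.072), and in those lacking PntP1 for Ids (-0.32), CG33136 (-0.0051) and PGRP-SC2 (0.64). Thor turned to 0.088, 0.073 and 0.026 without Foxo, AopACT or Foxo+AopACT+PntP1, to 0.074 with marker covariates and to 0.0094 in the pairs, and ran from -0.12 to 0.079 without single libraries. PGRP-SC2 turned to 0.049 with limma, 0.010 without AopACT+PntP1, 0.43 with marker covariates and 0.50 without the libraries highest in gut markers, and ran from -0.84 to 0.014 without single libraries. The cause of these changes was not tested. Depth limits rho-6, CG11300 and CG33136 most, and guts and fat bodies of the same flies were not modelled as pairs.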
